A study of Mus musculus with 6 samples.

Results

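The neurexins *Nrxn2* and *Nrxn3* and the neuroligins *Nlgn1*, *Nlgn2* and *Nlgn3* were examined in the neonatal mouse cortex, as 5 of the 17418 genes in a table of transcript counts from single cells. The rule names these genes and uses no measured value, although they were proposed with earlier results of these data known. Counts came from InDrop, which encloses each cell in a droplet with a barcoded bead and tags captured transcripts with random unique molecular identifiers (UMIs), so that PCR copies are counted once. The cortex of 3 wild type (WT) mice of the strain FVB.129P2-Pde6b+ Tyrc-ch/AntJ and of 3 *Fmr1*-KO mice of FVB.129P2-Pde6b+ Tyrc-ch Fmr1tm1Cgr/J was taken on postnatal day 5 (P5), both sexes included, 1 mouse per sample. The strain names of both genotypes carry the Pde6b+ and Tyrc-ch alleles, and the KO allele is a constitutive one, so that FMRP, the RNA-binding protein lost in fragile X syndrome, is missing from every cell type and not from neurons alone.

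Neurexins are adhesion proteins of the presynaptic membrane. Each gene gives long (alpha) and short (beta) forms from separate promoters, and the proteins reach across the synaptic cleft to bind neuroligins and several other families of ligands on the partner cell. Neuroligins sit on the postsynaptic side: *Nlgn1* is known for excitatory synapses, *Nlgn2* for inhibitory synapses, and *Nlgn3* is found at both. Neuroligins are also expressed by astrocytes and by cells of the oligodendrocyte lineage.

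The table held 18393 cells of 17 libraries, of which 17280 were not marked as doublets by the authors and were used. The counts summed to between 8070039 and 20677233 UMIs per mouse. Cells carried the authors' labels of 18 subtypes, of which 11 had at least 10 cells in every mouse. Both genotypes were in each of 2 batches: WT 1 was processed in batch 1 together with *Fmr1*-KO 1 and *Fmr1*-KO 2, and *Fmr1*-KO 3 in batch 2 together with WT 2 and WT 3. Each batch used its own version of the beads, and batch and beads cannot be told apart. Markers were led in every mouse by the subtypes they name, but were also found elsewhere. The 6 excitatory markers summed to between 2861 and 5483 CPM (UMIs of a gene per 1e6 UMIs) in excitatory neurons. They summed to 40.3 to 271 CPM in OPC_1 and to 369 to 792 CPM in microglia. The 5 interneuron markers summed to between 1688 and 2024 CPM in interneurons and to 498 to 1216 CPM in ganglionic precursors. In excitatory neurons the interneuron markers stood at 706, 1642 and 839 CPM in the mice of batch 1 (WT 1, *Fmr1*-KO 1 and *Fmr1*-KO 2) and at 128 to 238 CPM in batch 2. *Fmr1* stood at 68.4, 74.1 and 72.5 CPM in the WT mice and at 17.2, 19.9 and 16.1 CPM in the KO mice, although tags from the end of a transcript do not cover the disrupted exon and do not measure the protein. Of the 15463 barcodes, 2231 (14.4%) occurred in more than 1 library. The 17 pairs of libraries from the same mouse shared 33 to 353 barcodes, and 96.1% of these pairs of cells had the same subtype. The 119 pairs from different mice shared 0 to 21 barcodes, with the same subtype in 17.6%. Keeping 1 cell per barcode and mouse left 14850 cells, and the results were computed both with and without the other 2430 cells (14.1%). No genotype comparison of a member changed sign without them, and the largest move of a fitted log2 ratio was 0.10.

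In the mm10 annotation, *Nrxn2* lies at chr19:6418731-6544169 and *Nrxn3* at chr12:88722876-90334935, both on the plus strand. *Nlgn1* lies at chr3:25426215-26332460 and *Nlgn2* at chr11:69823122-69837784, both on the minus strand, and *Nlgn3* at chrX:101299168-101325963 on the plus strand. All 5 of the coding transcripts of *Nrxn3* end within 3000 bases of each other, and so do 7 of the 9 of *Nrxn2*. Since the reads come from the 3′ end, alpha and beta transcripts were counted together. *Slc22a12*, on the opposite strand, overlaps the annotated end of *Nrxn2*, and whether the counting used the strand is not given in the sources used here.

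Sequences before annotated start sites are shown for *Nrxn3*, whose separate start sites the 3′ counts cannot tell apart, and for *Nlgn2*, the most abundant neuroligin. They are the 250 bases before each start site in RefSeq (GRCm38.p6, which has the coordinates of mm10), read along the strand of the gene. The table held 6 start sites for 3 of the members: 3 for *Nrxn3*, 2 for *Nlgn1* and 1 for *Nlgn2*. First, second and last name the *Nrxn3* starts by their order in that table. The annotated gene begins further upstream, at base 88722876, and the table held no window there. The windows are called promoters by position only, and whether each acts as one was not tested. Capitals mark GGGCGG or its reverse complement CCGCCC, a GC box, which 32.7% of the 32851 promoters in the table hold in the same window.
Nrxn3, first start (chr12:88794254-88794503, plus strand): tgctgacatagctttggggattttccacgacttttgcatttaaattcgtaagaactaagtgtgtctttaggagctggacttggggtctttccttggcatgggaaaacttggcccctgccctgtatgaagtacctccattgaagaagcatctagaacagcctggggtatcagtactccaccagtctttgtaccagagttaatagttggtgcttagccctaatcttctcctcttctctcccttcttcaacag
Nrxn3, second start (chr12:88953140-88953389, plus strand): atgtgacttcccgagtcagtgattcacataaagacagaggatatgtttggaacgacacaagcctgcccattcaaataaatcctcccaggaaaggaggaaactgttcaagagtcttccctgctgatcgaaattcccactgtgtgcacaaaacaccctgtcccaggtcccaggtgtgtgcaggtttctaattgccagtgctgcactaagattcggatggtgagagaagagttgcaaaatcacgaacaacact
Nrxn3, last start (chr12:89812233-89812482, plus strand): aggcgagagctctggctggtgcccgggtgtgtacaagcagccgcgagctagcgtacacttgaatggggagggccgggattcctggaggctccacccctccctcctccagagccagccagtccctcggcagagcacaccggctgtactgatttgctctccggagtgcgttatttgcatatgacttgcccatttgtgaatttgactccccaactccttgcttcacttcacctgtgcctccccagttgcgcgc
Nlgn2 (chr11:69837785-69838034, minus strand): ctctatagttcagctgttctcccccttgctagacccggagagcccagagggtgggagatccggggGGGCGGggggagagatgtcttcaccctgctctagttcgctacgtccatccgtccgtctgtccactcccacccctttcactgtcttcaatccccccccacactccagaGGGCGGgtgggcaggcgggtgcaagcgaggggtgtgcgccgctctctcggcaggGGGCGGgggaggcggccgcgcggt
The window of *Nlgn2* held 3 GC boxes and 18 CpG dinucleotides, more CpG than 78.3% of all promoters. The windows of *Nrxn3* held no GC box. They held 2 CpG at the first start, 5 at the second and 12 at the last, against a median of 6 over all promoters. These matches describe the letters of the windows, and the counts bear on none of the start sites singly.

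The first question was which cells of the P5 cortex carry each member. UMIs count transcripts by their 3′ ends, so that levels in CPM do not depend on the length of a transcript, and they are given as the mean ± SD over mice of the summed UMIs per mouse and subtype. Because the authors clustered the cells on the same counts, differences between subtypes are described without a test. Neighbours in an order of levels are said to differ beyond their spread where the difference had the same sign in all 6 mice and its mean exceeded its SD.

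*Nrxn2* had the highest level of any member in excitatory neurons, OPC_1 and both astrocyte subtypes, while *Nrxn3* exceeded it by mean in interneurons and ganglionic precursors and *Nlgn2* in oligodendrocytes. It was highest in excitatory neurons, with 955 ± 109 CPM (n = 6), where the WT mice had 991, 998 and 899 CPM and the KO mice 854, 1135 and 853 CPM. OPCs of the first subtype (OPC_1) followed with 584 ± 59.2 CPM, and the gap to excitatory neurons exceeded the spread. Interneurons (460.1 ± 64.8 CPM), Astrocytes_1 (425 ± 103) and Astrocytes_2 (360 ± 56.7) came next, and from OPC_1 to Astrocytes_2 no neighbours differed beyond their spread. Glial subtypes thus stood next to interneurons in the order. Oligodendrocytes (204 ± 42.7 CPM), ependymal cells (146 ± 39.3), pericytes (130 ± 46.4) and ganglionic precursors (118 ± 19.4) were lower, and microglia (37.5 ± 19.6) and endothelial cells (24.3 ± 11.6) lowest.

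*Nrxn3* was highest in interneurons, with 849, 852 and 848 CPM in the WT mice and 869, 853 and 729 CPM in the KO mice. Its mean there was 833 ± 51.7 CPM, and every mouse had less in excitatory neurons, where the mean was 331 ± 144 CPM. Ganglionic precursors, the dividing cells of the interneuron lineage, held 253 ± 79.1 CPM and did not differ from excitatory neurons beyond the spread. OPC_1 held 121 ± 27.5 CPM, below ganglionic precursors and above Astrocytes_2 (58.5 ± 14.9) and Astrocytes_1 (39.6 ± 6.77), each step beyond the spread. The remaining subtypes had means from 6.35 to 21.6 CPM. The subtypes with the highest means of *Nrxn3* were thus the 3 neuron subtypes, which was not so for *Nrxn2*. At least 1 *Nrxn3* UMI was found in 73.9% of interneurons (65.0 to 77.7% per mouse) and in 2.22% of microglia (0 to 7.53%), which are not known to express it and had a similar median depth of 2656 against 2469 UMIs per cell. With every cell thinned to 700 UMIs, the shares were 42.7% and 0.372%, after leaving out 4 microglia and 0 interneurons below that depth.

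*Nlgn1* was shared between excitatory neurons and OPCs. Excitatory neurons held 167, 175 and 164 CPM in the WT mice and 175, 185 and 173 CPM in the KO mice. Their mean was 173 ± 7.46 CPM, with little spread between mice over all cells of the label. OPC_1 held 158 ± 13.8 CPM and did not differ from excitatory neurons beyond the spread, and it had the higher mean once cells were thinned to 700 UMIs. Astrocytes_2 (86.8 ± 15.8 CPM), oligodendrocytes (85.3 ± 23.3) and Astrocytes_1 (72.2 ± 10.5) formed a middle group without differences beyond the spread. Interneurons stood lower, at 29.5 ± 13.4 CPM, with 20.4, 56.0 and 29.4 CPM in the WT mice and 24.6, 21.0 and 25.5 CPM in the KO mice. In each of the 6 mice interneurons had less *Nlgn1* than excitatory neurons, OPC_1 and both astrocyte subtypes.

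*Nlgn2* was highest in the oligodendrocyte lineage. OPC_1 held 542, 375 and 307 CPM in the WT mice and 543, 513 and 299 CPM in the KO mice, and oligodendrocytes held 550.2, 343 and 284 CPM and 578, 392 and 258 CPM. The means of 430 ± 116 and 401 ± 135 CPM did not differ beyond the spread, and oligodendrocytes exceeded excitatory neurons (270.3 ± 86.7 CPM) in all 6 mice. Interneurons had 185 ± 25.3 CPM, Astrocytes_2 158 ± 44.6, Astrocytes_1 110.4 ± 46.7 and ganglionic precursors 83.4 ± 25.4. *Nlgn2*, known from inhibitory synapses, was thus detected in both excitatory neurons and interneurons, which did not differ beyond the spread, with the lower mean in interneurons. Microglia (12.3 ± 10.6 CPM) and endothelial cells (9.26 ± 5.58) were near the bottom, and 2.59% of microglia against 58.7% of OPC_1 had a *Nlgn2* UMI.

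Among the 11 subtypes with at least 10 cells in every mouse, *Nlgn3* had the same leading subtypes as *Nlgn2*. It had the lowest mean of the neuroligins in each neuron, astrocyte and oligodendrocyte-lineage subtype of these 11. It stood at 80.6 ± 10.8 CPM in OPC_1 and 60.5 ± 20.8 CPM in oligodendrocytes, which did not differ beyond the spread and changed places in thinned cells. Excitatory neurons (27.7 ± 7.53 CPM), Astrocytes_2 (25.1 ± 18.7), Astrocytes_1 (23.6 ± 6.36) and interneurons (23.5 ± 8.72) followed, and no neighbours from excitatory neurons to ganglionic precursors (11.4 ± 4.51 CPM) differed beyond their spread. The remaining subtypes had means from 0.560 to 3.87 CPM.

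**Figure D1:**
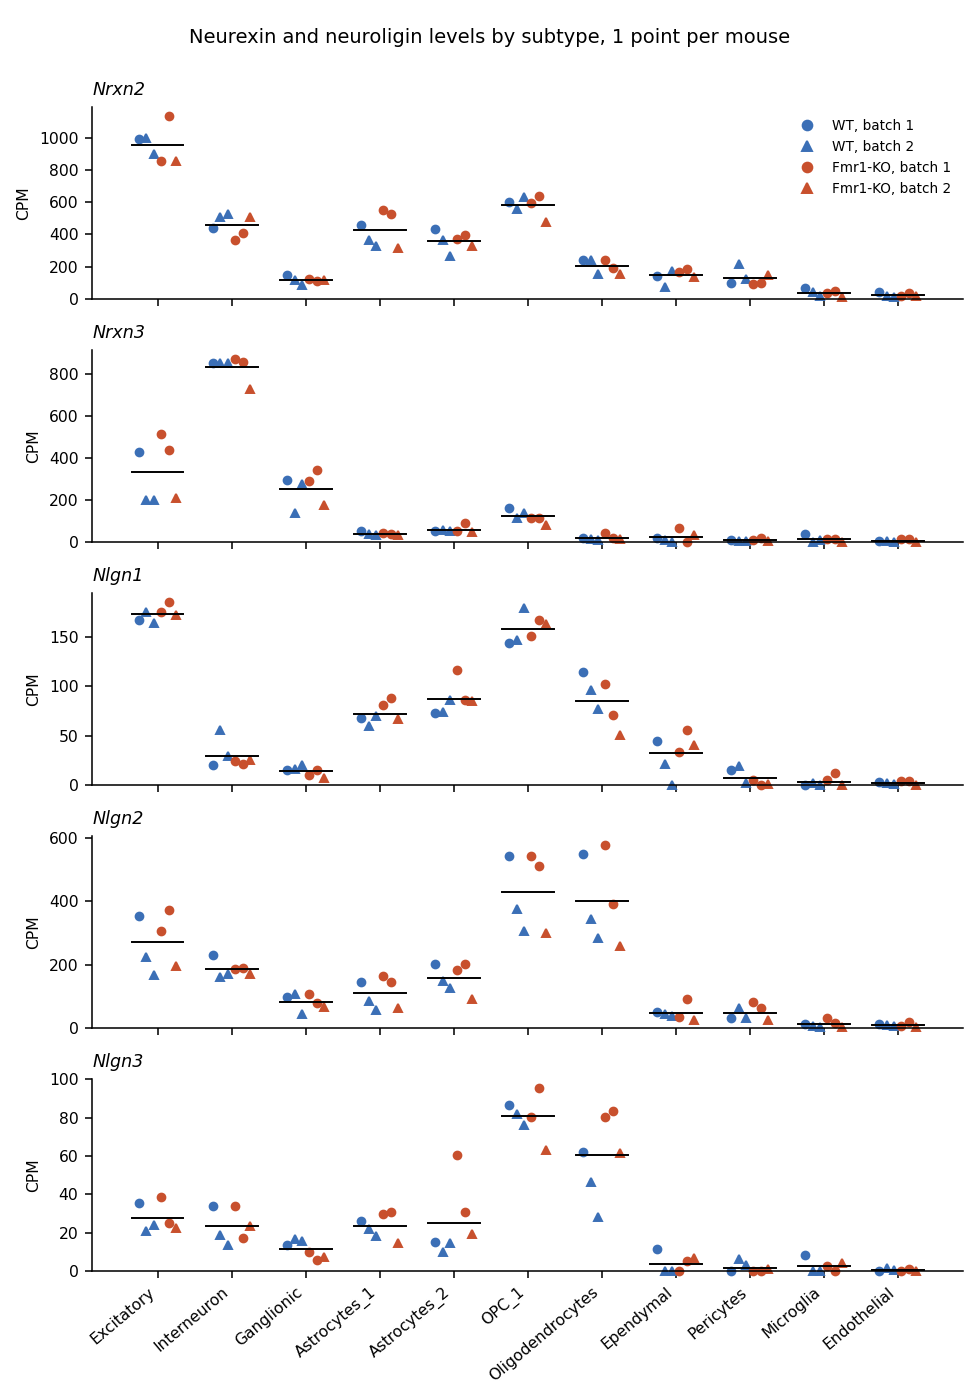
Level of each member (CPM of summed UMIs, linear axis from 0) in the 11 subtypes with at least 10 cells in every mouse, 1 point per mouse and a line at the mean of 6 mice; colour gives the genotype and shape the batch. *Nrxn2* is led by excitatory neurons (955 CPM), *Nrxn3* by interneurons (833 CPM), *Nlgn1* by excitatory neurons and OPC_1 (173 and 158 CPM), and *Nlgn2* and *Nlgn3* by OPC_1 and oligodendrocytes.

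The second, small OPC subtype (OPC_2, 104 cells, 5 mice with at least 10 cells) had a different mix from OPC_1. Its *Nrxn2* level was 368 ± 84.7 CPM (n = 5), but *Nlgn2* was at 111 ± 66.0 CPM, *Nlgn1* at 37.5 ± 35.5 and *Nlgn3* at 7.18 ± 9.83. All 3 neuroligins thus had lower means than in OPC_1, although these rest on 39, 11 and 3 UMIs, and no test was made.

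Every member split by batch in at least 1 subtype. *Nlgn2* was higher in all 3 mice of batch 1 than in all 3 of batch 2 in 6 of the 7 neuron, astrocyte and oligodendrocyte-lineage subtypes, with ratios of the means from 1.21 to 2.20. *Nrxn3* was so in 4 of 7, *Nlgn3* in 3, *Nrxn2* in 2 and *Nlgn1* in 0. In interneurons *Nrxn2* and *Nlgn1* were wholly higher in batch 2, with ratios of batch 1 over batch 2 of 0.787 and 0.595. Among all genes tested, 22.9% were wholly higher in batch 1 in excitatory neurons and 34.7% wholly lower, and in OPC_1 the shares were 16.8% and 20.5%. Levels that split by batch were thus common in these cells, and genotypes were compared with the batch as a covariate.

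*Nrxn3* in excitatory neurons was one of the members that split by batch. Batch 1 mice had 428 (WT 1), 515 (*Fmr1*-KO 1) and 436 CPM (*Fmr1*-KO 2), and batch 2 mice 198 (WT 2), 199 (WT 3) and 210 CPM (*Fmr1*-KO 3), a ratio of 2.27. In interneurons the batches overlapped, with a ratio of 1.06. Interneuron markers in the excitatory neurons moved with it: the sum of *Gad1*, *Gad2*, *Dlx1*, *Htr3a* and *Sst* (5 of the 6 listed markers were in the table) was 706, 1642 and 839 CPM in batch 1 and 238, 163 and 128 CPM in batch 2. In excitatory neurons without any UMI of these markers (53.0 to 76.1% of the cells per mouse), *Nrxn3* stood at 279, 167 and 168 CPM in batch 1 and at 190.4, 149 and 186 CPM in batch 2, so that the batches overlapped. In the same cells *Nlgn1* stood at 127, 190 and 141 CPM in the WT mice and at 135, 120 and 176 CPM in the KO mice. *Nrxn2* stood there at 684, 994 and 890 CPM in the WT mice and at 744, 790 and 805 CPM in the KO mice. These cells were picked by the absence of interneuron markers after the data had been seen. Their median depth was below that of all excitatory neurons in each of the 6 mice.

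The makeup within each family differed between subtypes. *Nrxn3* gave 64.5 ± 4.22% of the UMIs of *Nrxn2* and *Nrxn3* together in interneurons and 66.8 ± 8.86% in ganglionic precursors, but 25 ± 8.24% in excitatory neurons and 17.1 ± 2.43% in OPC_1. Astrocytes_1 had 8.69 ± 1.16% and oligodendrocytes 8.67 ± 3.5%. No mouse had less than 58.8% *Nrxn3* in interneurons or more than 37.6% in excitatory neurons.

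Among the 3 neuroligins, *Nlgn2* held the largest share in each of the neuron, astrocyte and oligodendrocyte-lineage subtypes by mean. It ranged from 51.7 ± 8.51% in Astrocytes_1 and 56.2 ± 7.08% in excitatory neurons to 77.7 ± 5.18% in interneurons and 72.8 ± 2.62% in oligodendrocytes. *Nlgn1* made up 37.9 ± 6.94% in excitatory neurons and 36.8 ± 8.23% in Astrocytes_1, against 12.6 ± 5.89% in interneurons and 13.6 ± 6.20% in ganglionic precursors. The share of *Nlgn1* in excitatory neurons (30.0 to 46.0% over mice) lay wholly above that in interneurons (7.11 to 23.7%). *Nlgn3* gave between 5.92 ± 1.17% (excitatory neurons) and 12.2 ± 1.27% (OPC_1).

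**Figure D2:**
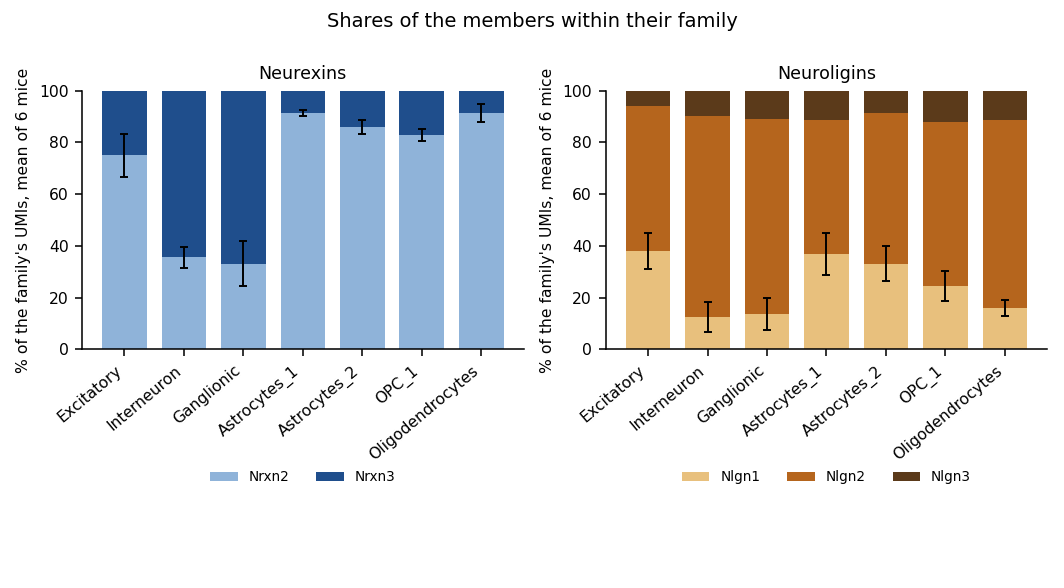
Stacked bars of each member's share (%) of the UMIs of its family, as the mean of 6 mice, in 7 subtypes; error bars are ± 1 SD of the lowest segment (*Nrxn2* or *Nlgn1*). *Nrxn3* takes 64.5% in interneurons and 25% in excitatory neurons, and *Nlgn1* 37.9% in excitatory neurons and 12.6% in interneurons.

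Over the 14 subtypes with at least 100 cells, the genes most like each member by Pearson's r of log2(CPM + 1), among 11260 genes with at least 500 UMIs, were as follows. For *Nrxn2* they were *Abcg4* (r = 0.96), *Zfp651* (0.93) and *Tmem198* (0.93), and for *Nrxn3* *Nol4* (0.97) and *Sez6* (0.95). For *Nlgn1* they were *Bai2* (0.97), *Dlgap1* (0.95), a postsynaptic scaffold gene, and *Dab1* (0.94). For *Nlgn2* they were *Atxn7l3b* (0.96), *Grik5* (0.94), a kainate receptor subunit, and *Lrp3* (0.94). For *Nlgn3* they were *Samd8* (0.95), *Slc25a23* (0.94) and *Nlgn2* itself (0.94). The subtypes share libraries and depth, and these values describe likeness only. The neurexins were not alike across subtypes (r = 0.51), and *Nrxn3* and *Nlgn2* had r = 0.48.

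A list of 47 partner genes of the neurexins and neuroligins was read in the same cells. Of these, 15 had their highest mean in excitatory neurons, 12 in OPC_1, 4 each in oligodendrocytes and ependymal cells and 3 each in interneurons and endothelial cells. Among the ligands of neurexins, the neurexophilin *Nxph1* was at 274 ± 27.2 CPM in OPC_1 and 168 ± 96.0 CPM in interneurons, and the postsynaptic ligand *Lrrtm3* at 108 ± 12.9 CPM in OPC_1 and 50.3 ± 10.6 CPM in oligodendrocytes. The latrophilin *Lphn1* was at 1055 ± 353 CPM in excitatory neurons, the highest level of any partner. *Dag1*, dystroglycan, was instead led by Astrocytes_1 (672 ± 119 CPM). The MDGAs, which bind neuroligins and keep neurexins off, were at 88.1 ± 9.96 CPM (*Mdga1*, excitatory neurons) and 116 ± 16.2 CPM (*Mdga2*, OPC_1). Of the scaffolds, *Dlg4*, which encodes PSD-95, was highest in excitatory neurons (267 ± 46.1 CPM), and *Gphn*, which encodes gephyrin of inhibitory synapses, in OPC_1 (142 ± 15.9 CPM). Hence several partners of both families had OPC_1 rather than a neuron subtype as their highest subtype.

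The second question was whether any member changed with the loss of FMRP. UMIs summed per mouse and cell type were compared with edgeR's quasi-likelihood test in 11 cell types. A gene entered where 15% or more of a type's cells had a UMI of it, and it was called at an FDR under 0.01 with a minimum fold change. Neurons were tested as a whole and as 3 subtypes. In 30 of the 55 pairs of a member and a type the member passed the filter on low values: all 5 members in OPC_1, 4 in all neurons, excitatory neurons and oligodendrocytes, 3 in interneurons, ganglionic precursors and both astrocyte subtypes, 1 in pericytes and 0 in endothelial cells and microglia. None of the 30 was called, by edgeR or by DESeq2. Few genes were called at all: 0% of the genes tested in all neurons, excitatory neurons, interneurons, Astrocytes_2, endothelial cells, pericytes and microglia, 0.0499% in ganglionic precursors, 0.0208% in Astrocytes_1, 0.0245% in OPC_1 and 0.0423% in oligodendrocytes.

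At an unadjusted p under 0.05, edgeR counted 3 of the 30 pairs: *Nrxn2* and *Nlgn1* in all neurons and *Nrxn3* in OPC_1. Of all genes tested, 16.6% were under 0.05 in all neurons, 3.48% in excitatory neurons, 4.53% in interneurons, 6.39% in ganglionic precursors, 4.72% in Astrocytes_1, 4.26% in Astrocytes_2, 4.24% in OPC_1, 4.4% in oligodendrocytes and 3.29% in pericytes. The fitted log2 ratios of KO over WT were below 0 in 22 pairs and above 0 in 8, with a median of -0.10 and a range from -0.63 to 0.63. Over all genes tested, the medians of the types ran from -0.0036 (microglia) to 0.0050 (Astrocytes_1). The pairs are not separate, since all neurons include the cells of the 3 neuron subtypes, and the signs were not tested. In 19 pairs the ratios within batch 1 and within batch 2 had the same sign, and in 11 they had opposite signs. The width of the intervals did not simply follow the number of UMIs. *Nrxn2* in Astrocytes_1 (12690 UMIs) differed by 0.06 (95% interval -0.18 to 0.29), and *Nrxn3* in interneurons (2747 UMIs) by -0.08 (-0.29 to 0.12). In excitatory neurons *Nrxn2* (7583 UMIs) differed by -0.06 (-0.37 to 0.25) and *Nlgn1* (1367 UMIs) by 0.08 (-0.22 to 0.38). *Nlgn2* in Astrocytes_1 (3044 UMIs) differed by -0.02 (-0.37 to 0.33). None of these intervals excluded a change as large as the minimum fold change of a call.

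**Figure D3:**
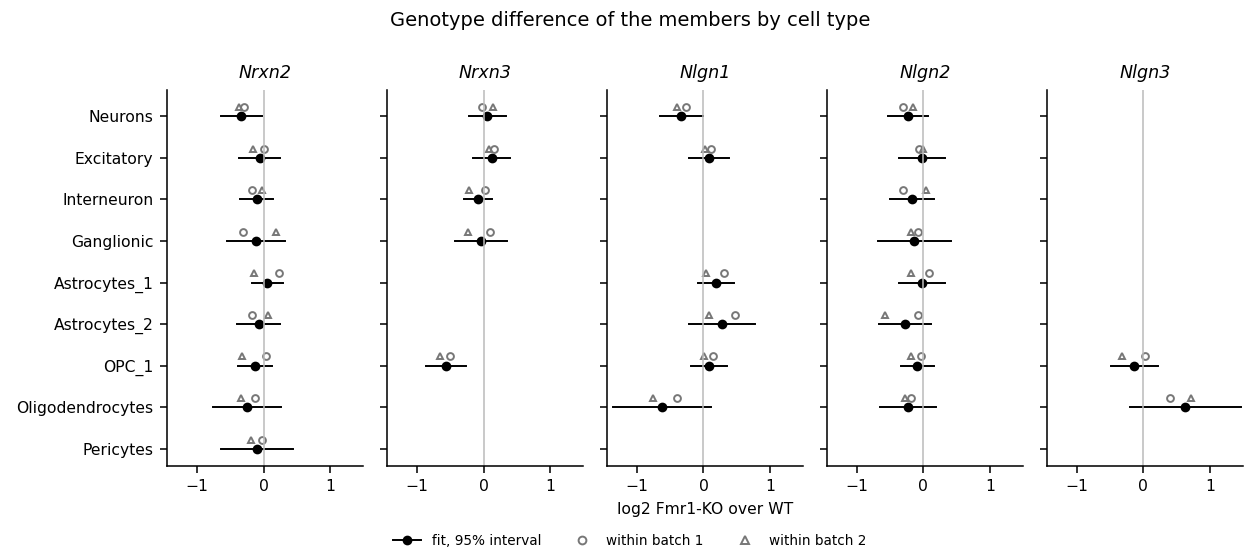
Log2 ratio of *Fmr1*-KO over WT for each member in each cell type where it passed the filter; black points and lines are edgeR's estimate and 95% interval, and open grey symbols are the log2 ratios of mean CPM within batch 1 (circles) and batch 2 (triangles). The interval lies wholly below 0 for *Nrxn2* and *Nlgn1* in all neurons and for *Nrxn3* in OPC_1, and no pair was called.

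In all neurons together, *Nrxn2* stood at 639, 850.3 and 757 CPM in the WT mice and 444, 598 and 619 CPM in the KO mice, and the genotypes did not overlap. Such non-overlap was found for 9.91% of the genes tested in all neurons. The log2 ratio was -0.33 (SE 0.13), with edgeR's adjusted p = 0.28. *Nlgn1* was at 84.4, 146 and 125 CPM in the WT mice and 60.6, 80.1 and 102 CPM in the KO mice, with a log2 ratio of -0.33 (SE 0.14, edgeR's adjusted p = 0.29) and overlapping genotypes. Both ratios were negative within each batch. *Nlgn2* differed by -0.23 (SE 0.13) and *Nrxn3* by 0.05 (SE 0.12).

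The mix of neuron subtypes moved with these values. Excitatory neurons were 56.8, 75.3 and 49.5% of the neurons in the WT mice. In the KO mice they were 42, 48.6 and 35.6%, so that every KO mouse had a smaller share than every WT mouse. Within excitatory neurons, the log2 ratio was -0.06 (SE 0.14) for *Nrxn2* and 0.08 (SE 0.14) for *Nlgn1*. For an equal mix, 162 excitatory, 59 interneuron and 61 ganglionic cells were drawn once in each mouse. The ratio in neurons was then -0.15 (SE 0.13) for *Nrxn2* and 0.15 (SE 0.16) for *Nlgn1*. At this mix 2.31% of all genes were at an unadjusted p under 0.05 from edgeR. The draw made cell numbers equal but not their depth. The shares of the subtypes among the summed UMIs could thus still differ between mice. Neither gene differed beyond the replicate error within excitatory neurons or at the equal mix, which bounds the differences without showing that there were none.

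**Figure D4:**
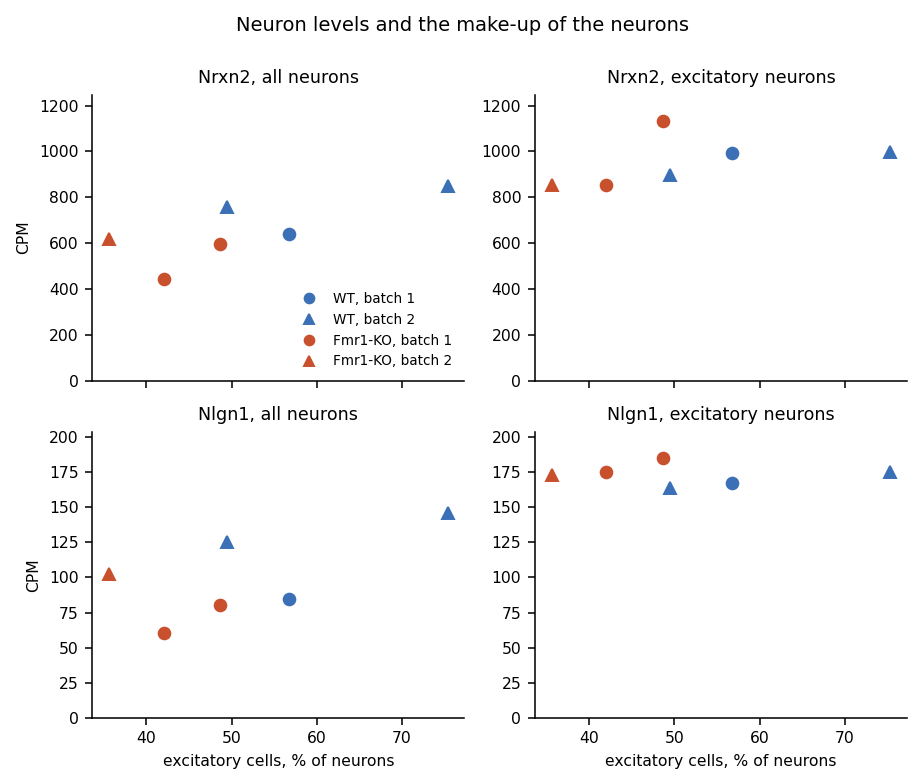
CPM of *Nrxn2* (top) and *Nlgn1* (bottom) per mouse in all neurons (left) and in excitatory neurons alone (right), against the share of excitatory cells among the neurons of the mouse; colour gives the genotype and shape the batch. The KO mice lie at 35.6 to 48.6% excitatory cells and the WT mice at 49.5 to 75.3%, and in excitatory neurons alone the genotypes overlap for both genes.

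In interneurons, the 3 members that passed the filter had ratios of -0.10 (*Nrxn2*), -0.08 (*Nrxn3*) and -0.17 (*Nlgn2*), each within 2 SE of 0. In ganglionic precursors the same members had ratios from -0.14 to -0.03. In excitatory neurons *Nrxn3* differed by 0.12 (SE 0.13) and *Nlgn2* by -0.02 (SE 0.16). No member thus differed beyond the replicate error in a neuron subtype.

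In astrocytes, *Nlgn1* was at 68.1, 59.7 and 69.7 CPM in the WT mice and 81.1, 88.4 and 66.4 CPM in the KO mice of Astrocytes_1, with a log2 ratio of 0.18 (SE 0.12). In Astrocytes_2 its ratio was 0.28 (SE 0.24) and that of *Nlgn2* -0.28 (SE 0.19). Neither passed the test (edgeR's adjusted p of 0.92 and 0.99 for *Nlgn1*).

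*Nrxn3* in OPC_1 had the smallest p of the 30 pairs. It was at 163, 116 and 140.1 CPM in the WT mice (748 UMIs over the 6 mice) and at 115, 113 and 81.3 CPM in the KO mice, without overlap. The log2 ratio was -0.57 (SE 0.14, 95% interval -0.86 to -0.27), with an unadjusted p of 0.00106 and edgeR's adjusted p = 0.95 over the 4076 genes tested, so that it did not pass. The ratio was -0.51 within batch 1 and -0.65 within batch 2, and non-overlap of the genotypes was found for 6.77% of the genes in OPC_1. With cells thinned to 700 UMIs the ratio was -0.29 (unadjusted p = 0.32 from edgeR). *Nrxn3* gave 21.2, 17.2 and 18.2% of the neurexin UMIs in the WT mice, against 16.2, 15.1 and 14.5% in KO mice, and the two-sided exact permutation test of the share gave p = 0.10, the smallest that 3 against 3 mice allow, and 0.96 after adjustment over 16 such tests.

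Neuron markers were present in OPC_1 and were higher in every mouse of batch 1 than in every mouse of batch 2. The 5 interneuron markers summed to 163, 80.1 and 65.6 CPM in the WT mice and 160.4, 201 and 55.0 CPM in the KO mice, and the 6 excitatory markers to 240.3, 113 and 49.6 CPM and 205, 271 and 40.3 CPM. None of these markers was at 0 over the subtype. Among OPC_1 cells without a UMI of the interneuron markers, *Nrxn3* was at 116, 116 and 134 CPM in the WT mice and 122, 118 and 80.3 CPM in the KO mice, and the genotypes overlapped. Among those without a UMI of the excitatory markers it was at 180, 118 and 141 CPM and 113, 79.6 and 75.8 CPM, without overlap. The part of such transcripts in the difference was not tested beyond these values.

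**Figure D5:**
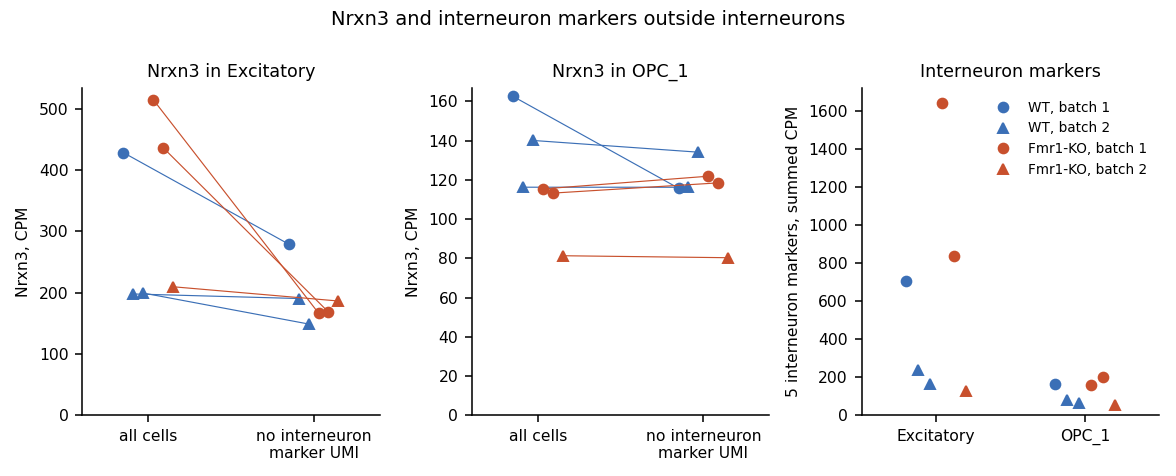
*Nrxn3* in excitatory neurons and in OPC_1 (CPM per mouse), in all cells and in those without a UMI of 5 interneuron markers, with the summed CPM of these markers on the right; lines join the values of a mouse, colour gives the genotype and shape the batch. In excitatory neurons the batch 1 mice lie at 428 to 515 CPM in all cells and at 167 to 279 CPM in cells without these markers, and in OPC_1 the genotypes overlap in cells without these markers.

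The other members in OPC_1 had ratios of -0.13 (*Nrxn2*), 0.08 (*Nlgn1*), -0.09 (*Nlgn2*) and -0.14 (*Nlgn3*), each with an SE between 0.12 and 0.16. In oligodendrocytes, of which there were 24 to 108 per mouse, the ratio was -0.63 (SE 0.38) for *Nlgn1* and 0.63 (SE 0.42) for *Nlgn3*. *Nlgn3* was at 62.3, 46.5 and 28.4 CPM in the WT mice and 80.5, 83.6 and 61.7 CPM in the KO mice. The ratios rest on 127 UMIs of *Nlgn1* and 91 of *Nlgn3* in all. The intervals, -1.36 to 0.11 for *Nlgn1* and -0.20 to 1.46 for *Nlgn3*, include 0. With cells thinned to 700 UMIs the ratios were 0.32 for *Nlgn1* and -0.47 for *Nlgn3*, of the opposite sign. In pericytes *Nrxn2* differed by -0.10 (SE 0.26).

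The 25 pairs under the filter were read from fits over every gene with a UMI in the type, and none was called. At an unadjusted p under 0.05 there were 2. *Nlgn3* in Astrocytes_2 was at 15.3, 10.1 and 14.4 CPM in the WT mice and 60.5, 30.7 and 19.4 CPM in the KO mice, without overlap, with a log2 ratio of 1.20 (SE 0.46, edgeR's adjusted p = 0.79) from 69 UMIs, where 4.26% of all genes were under 0.05 and 7.78% did not overlap. *Nrxn3* in microglia had a ratio of -1.69 (SE 0.79, edgeR's adjusted p = 1.00) from 25 UMIs, where 2.98% of genes were under 0.05. In ganglionic precursors *Nlgn1* (35 UMIs) and *Nlgn3* (26 UMIs) did not overlap between genotypes, with ratios of -0.62 (SE 0.61) and -0.92 (SE 0.70), beside 7.49% of all genes there. In endothelial cells, the 5 members had 3 to 121 UMIs each.

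Whether the effect of genotype differed between cell types was tested over pairs of types, blocking on the mouse. None of the 17 terms of the members was called, with or without a term for batch by cell type. The mouse block does not remove a batch effect that differs between types, and 15 of the 17 terms moved by over 1.5 times with that term. Of all genes, 0% were called in each of the 4 contrasts, and 2.51% (excitatory neurons minus interneurons), 1.27% (excitatory neurons minus Astrocytes_1), 3.14% (interneurons minus Astrocytes_1) and 4.05% (Astrocytes_1 minus OPC_1) were at an unadjusted p under 0.05. The 1 member term under that level was *Nrxn3* in Astrocytes_1 minus OPC_1, at 0.37 (SE 0.16, edgeR's adjusted p = 0.92), and 0.39 (SE 0.18) with the batch by type term. The difference for *Nrxn3* between excitatory neurons and interneurons was 0.55 (SE 0.35), with an interval from -0.21 to 1.32, but 0.20 (SE 0.15, -0.10 to 0.50) with the batch by type term.

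The family shares were tested in 4 subtypes, by exact permutation of 3 against 3 mice, which cannot go below p = 0.10, and without the batch. *Nlgn2* gave 54.7 ± 8.26% of neuroligin UMIs in the excitatory neurons of WT mice and 57.6 ± 7.15% of KO mice (n = 3 each), with an exact permutation p of 0.70, and 76.4 ± 6.96% and 79.0 ± 3.72% in interneurons. Within batches the difference in excitatory neurons was -2.19 and -0.39 percentage points. All 16 tests had adjusted p of 0.96 or more, which says nothing of whether the shares differed. In subtypes not tested, the *Nlgn3* share in Astrocytes_2 was 5.26, 4.35 and 6.35% for WT against 16.9, 9.64 and 9.91% for KO, without overlap. In oligodendrocytes the *Nlgn1* share was 15.7, 19.8 and 19.9% in the WT mice against 13.5, 12.9 and 13.7% in KO mice, and the *Nlgn3* share 8.57, 9.58 and 7.28% against 10.6, 15.3 and 16.7%. The *Nlgn3* share in ganglionic precursors did not overlap either, at 10.5, 11.8 and 20.0% against 7.81, 5.63 and 9.09%. These shares of *Nlgn1* and *Nlgn3* rest on the few UMIs given above. The *Nlgn2* share did not overlap in ganglionic precursors and in pericytes, where *Nlgn2* had 218 and 104 UMIs in all. The shares of *Nrxn3* and of each neuroligin were read in all 11 subtypes with at least 10 cells in every mouse. Outside the 4 tested subtypes, the cases named here are all those without overlap. Of all splits of 3 against 3 mice, a part of 0.10 gives such non-overlap in either direction. The shares of a family are tied to each other, so that these cases are not separate.

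The partner genes were compared in the same fits, and none was called in any of the 11 types. In all neurons, 21 of the 47 were tested, of which 9 were lower and 1 higher in the KO mice at an unadjusted p under 0.05. Of all 3763 genes tested there, 318 were lower and 308 higher at that level. The median log2 ratio of the partners was -0.23 against 0.00 over all genes. Scaffolds of neuroligins made up 6 of the 9 lower partners, and 9 of the 21 tested. The 3 partners with the smallest p were *Dlg4* at -0.51 (SE 0.14), *Dlgap1* at -0.32 (SE 0.09) and *Apba1*, a neurexin scaffold, at -0.57 (SE 0.17), with edgeR's adjusted p from 0.16 to 0.18. At the equal mix of neuron subtypes 0 of the 21 were under 0.05 in either direction, against 2.31% of all genes, and the median was -0.07, with *Dlg4* at -0.17 (SE 0.16). Without the filter on low values, in all neurons without the equal mix, 3 partners were called, *Apba1*, *Cbln4* and *Shank3*, beside 0.953% of all genes; at the equal mix *Apba1* stood at -0.20 (SE 0.20) and the other two were under the filter.

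Within single types few partners were under 0.05, as for all genes there. In excitatory neurons 1 of 26 was under 0.05, *Shank3*, a postsynaptic scaffold, at -0.51 (SE 0.19), followed by *Dlg4* at -0.28 (SE 0.15) and *Lhfpl4*, a neuroligin partner at inhibitory synapses, at -0.20 (SE 0.14). In interneurons 0 of 13 were, and the smallest p belonged to *Dlgap1* (-0.25, SE 0.15), the neurexin splicing factor *Khdrbs3* (0.24, SE 0.15) and *Apba2* (0.24, SE 0.16). In Astrocytes_1 2 of 20 were, the protease subunit *Ncstn* (0.28, SE 0.11) and *Dlg4* (-0.31, SE 0.13), with *Grid1* next (0.24, SE 0.11). In OPC_1 1 of 24 was, the neurexin ligand *Lrrtm2* (-0.29, SE 0.13), followed by *Clstn3* (-0.35, SE 0.17) and *Dlgap1* (-0.22, SE 0.11). The median ratios in these types lay between -0.05 and 0.00, against 0.00 over all genes tested.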

How the data were processed

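InDrop libraries of whole cortex were made from 6 mice. The authors processed the reads with bcl2fastq and TopHat2 (version 2.0.14) on mm10, per the submitters' processing notes, and counted UMIs at transcript ends with ESAT. The deposited table holds raw UMI counts per gene and cell, with nothing normalized, and the authors' annotation gives each cell's mouse, subtype and doublet mark. The deposited size factors, a ratio per cell that the authors computed with scran within each batch, were used only for an alternative order of the levels.

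Here, doublets were left out and the UMIs of each type added up within a mouse. Genotypes were compared with edgeR (4.0.16), quasi-likelihood test, TMM scaling and a batch covariate. A gene entered where 15% or more of a type's cells had a UMI of it. Genes at a Benjamini-Hochberg FDR under 0.01 and at least 1.15-fold were called. Neurons were tested together and as 3 subtypes. Mice are separate animals. Family shares were compared by two-sided exact permutation. Ratios within a batch used mean CPM plus 0.5. The alternatives dropped the batch term, put the replicate number in its place as a block, or used no TMM, DESeq2 (1.42.0), other filters and thresholds, cells thinned to 700 UMIs, each mouse left out, an equal mix of neurons, and, chosen after seeing the data, 1 cell per barcode and mouse and cells without markers of another class. The main edgeR fit was tested on simulated counts in excitatory neurons, interneurons, ganglionic precursors, Astrocytes_1 and OPC_1. These counts were drawn without a batch effect. The fits in other types and the alternative fits were not tested in this way. The members, the 47 partner genes and the marker lists were chosen with earlier results of these data known. Partners named for genotype are the 3 with the smallest p in neurons, excitatory neurons, interneurons, Astrocytes_1 and OPC_1, and those named for their levels are examples. Genes named for likeness are the 3 with the highest r, of which 1 is not reported here. With 3 mice a group, counting error is only part of the spread, and depth differed between mice, with a median of 1957 to 4908 UMIs per cell.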

Additional observations from a re-analysis of the deposited data

How the results depend on the processing

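No member was called under any alternative run, and 43 of the 424 log2 ratios of members refitted under an alternative changed sign, over 22 of the 30 pairs. Causes were not tested. Without the batch term the ratio was 0.026 for *Nrxn2* in excitatory neurons, 0.013 for *Nrxn2* in Astrocytes_2 and 0.18 for *Nrxn3* in ganglionic precursors, and for *Nlgn2* 0.27 in excitatory neurons, 0.37 in Astrocytes_1, 0.16 in OPC_1 and 0.10 in oligodendrocytes, and 0 pairs were under an unadjusted p of 0.05. With cells thinned to 700 UMIs it was -0.0057 for *Nrxn2* in Astrocytes_1 and 0.21 in oligodendrocytes, -0.046 for *Nlgn1* in excitatory neurons, -0.036 in OPC_1 and 0.32 in oligodendrocytes, and -0.47 for *Nlgn3* in oligodendrocytes. The equal mix of neurons gave 0.15 for *Nlgn1*.

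Whether the replicate numbers pair the mice cannot be told apart from batch. WT 1 and *Fmr1*-KO 1 shared a batch, as did WT 3 and *Fmr1*-KO 3, but WT 2 and *Fmr1*-KO 2 did not. Deviations of mice with the same number correlated from -0.53 to 0.80, and from -0.53 to -0.07 for WT 2 and *Fmr1*-KO 2. In 0 of 11 types were all 3 pairs above 0.1 or every mouse closest to its own number. With these batches, that does not show whether the numbers pair the mice. With the replicate number as a block in place of batch, 5 pairs were under 0.05. The ratio under this replicate block was 0.0094 for *Nrxn2* in excitatory neurons, 0.0011 in ganglionic precursors and 0.035 in Astrocytes_2, 0.19 for *Nrxn3* in ganglionic precursors, and for *Nlgn2* 0.29 in excitatory neurons, 0.031 in ganglionic precursors, 0.35 in Astrocytes_1, 0.16 in OPC_1 and 0.049 in oligodendrocytes.

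Leaving out each mouse in turn gave 1 to 5 pairs under 0.05 (1 without WT 2 or *Fmr1*-KO 3, 5 without WT 3). Signs changed for *Nrxn2* in excitatory neurons (-0.18 to 0.024), ganglionic precursors (-0.31 to 0.19), Astrocytes_1 (-0.13 to 0.24), Astrocytes_2 (-0.17 to 0.037), OPC_1 (-0.29 to 0.032) and pericytes (-0.33 to 0.14), for *Nrxn3* in all neurons (-0.019 to 0.12), interneurons (-0.23 to 0.032) and ganglionic precursors (-0.24 to 0.18), for *Nlgn2* in excitatory neurons (-0.11 to 0.070), interneurons (-0.29 to 0.015), ganglionic precursors (-0.30 to 0.077) and Astrocytes_1 (-0.16 to 0.11), and for *Nlgn3* in OPC_1 (-0.29 to 0.023). *Nrxn3* in OPC_1 stayed between -0.63 and -0.50.

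Without the filter on low values 3 partners were called in all neurons, beside 0.953% of all genes there, *Apba1* (-0.58), *Cbln4* (-1.87) and *Shank3* (-0.79), of which the last 2 were named after their values were seen. The highest subtype stayed the same for 3 of 5 members in thinned cells and for 2 of 5 with the deposited size factors.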

Other observations

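Small subtypes had too few cells per mouse for a comparison of genotypes, and their levels are given as the mean ± SD over the mice with at least 10 cells. Cells labelled CR (123 cells, 5 mice) held *Nrxn2* at 473 ± 19.3 CPM and *Nlgn2* at 193 ± 53.4 CPM, with only 6 UMIs of *Nrxn3* and 4 of *Nlgn1* in all. Cells labelled SVZ (65 cells, 4 mice) held *Nrxn2* at 337 ± 95.4 CPM and *Nlgn2* at 199 ± 57.9 CPM, with 3 UMIs of *Nrxn3*. In fibroblasts (141 cells, 3 mice) *Nrxn2* stood at 201 ± 77.0 CPM, and no UMI of *Nrxn3* was counted.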
